A study of Mus musculus with 16 samples.

Results

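The 40 genes of the cell cycle and mitosis described here were chosen as a list of symbols and taken as the rows of the raw count table whose Ensembl identifiers map to those symbols. All 40 were found once among the 55487 genes of the table, and all 40 passed the filter on low counts that left 24971 genes to be tested. By textbook role, 16 of them act at the G1/S transition or in S phase, 20 act in mitosis, and 4 (Ccnd1, Ccnd2, Cdk2 and Mybl2) were put in neither class. The RNA came from slices of the hearts of 8-week-old male WT and Swhtr null mice, with 4 libraries in each of 4 groups. Swhtr null mice (Swhtr3xpA/3xpA) carry a transcriptional stop signal on both alleles of the long noncoding RNA Sweetheart from conception on, in every cell type, and the line was backcrossed to C57BL/6J. The line was kept by mating homozygous mice, so differences by genotype cannot be told apart from those by line and litter. Treated slices spent 7 days under 3% oxygen followed by 7 days under 21% oxygen, whereas untreated slices stayed under 21% oxygen for all 14 days. All slices, untreated ones included, had therefore spent 14 days in culture medium with serum. The 8 libraries of a genotype derive from 4 mice of a pair of litters, and the sources used here do not say which library came from which mouse, so the tests take libraries as independent that may share a mouse. Slices are bulk tissue, in which a larger number of cycling cells and more of these transcripts per cycling cell cannot be told apart.

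Cells enter the cycle when D-type cyclins and then cyclin E with CDK2 inactivate the RB family, which frees E2F factors to switch on the genes of DNA replication. After replication, the factors MYBL2 and FOXM1 switch on the genes of mitosis, and cyclin A and cyclin B with CDK1 drive the cell through division. Adult cardiomyocytes have largely left the cycle, so transcripts of this kind in the adult heart come mainly from its fibroblasts, endothelial cells and immune cells.

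The 2 classes of gene are known to carry different sequence elements near their start sites, and the promoters of 5 members that hold such elements are shown to let that difference be seen. Not all members hold them, as counted below. RefSeq start sites of build GRCm38.p6 gave windows of 250 bases before to 50 bases after the start for 32 of the 40 members, and 8 members (Ccnd1, Aurkb, Ccnd2, Kif20a, Ccna2, Foxm1, Mcm4 and Ccne2) had no window. Of each, the 250 bases before the start are printed, 5′ to 3′ on the strand of the gene. Capitals mark matches, on either strand, to the cell cycle homology region TTTGAA (CHR), to CCAAT, and to any of the E2F words TTTGGCGC, TTTCCCGC, TTTCGCGC and TTTGCCGC. No match to one motif overlapped a match to another, and a capital run longer than a word holds E2F words of both strands. Cdc20 (chr4:118437344-118437593, minus strand), Cdk1 (chr10:69352913-69353162, minus strand) and Top2a (chr11:99024190-99024439, minus strand) act in mitosis.
Cdc20: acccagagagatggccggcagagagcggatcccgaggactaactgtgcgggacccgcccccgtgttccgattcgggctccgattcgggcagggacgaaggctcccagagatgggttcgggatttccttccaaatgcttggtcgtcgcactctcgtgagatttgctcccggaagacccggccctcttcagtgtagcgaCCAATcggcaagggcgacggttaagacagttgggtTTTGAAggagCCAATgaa
Cdk1: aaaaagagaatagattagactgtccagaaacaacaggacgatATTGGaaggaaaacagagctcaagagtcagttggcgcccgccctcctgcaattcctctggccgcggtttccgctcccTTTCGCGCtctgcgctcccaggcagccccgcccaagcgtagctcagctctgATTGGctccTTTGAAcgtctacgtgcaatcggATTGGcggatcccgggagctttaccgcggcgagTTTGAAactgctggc
Top2a: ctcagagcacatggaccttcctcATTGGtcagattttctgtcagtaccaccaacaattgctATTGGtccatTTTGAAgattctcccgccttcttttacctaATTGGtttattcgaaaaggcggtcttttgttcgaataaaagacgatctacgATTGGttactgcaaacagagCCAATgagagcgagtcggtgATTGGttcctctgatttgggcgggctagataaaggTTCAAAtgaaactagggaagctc
Mcm5 (chr8:75109259-75109508, plus strand) and Mcm6 (chr1:128359706-128359955, minus strand) encode subunits of the replicative helicase.
Mcm5: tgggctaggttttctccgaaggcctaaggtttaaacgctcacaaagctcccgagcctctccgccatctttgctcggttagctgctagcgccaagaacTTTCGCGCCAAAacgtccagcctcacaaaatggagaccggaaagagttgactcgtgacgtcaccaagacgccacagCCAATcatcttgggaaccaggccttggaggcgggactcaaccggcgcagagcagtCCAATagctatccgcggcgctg
Mcm6: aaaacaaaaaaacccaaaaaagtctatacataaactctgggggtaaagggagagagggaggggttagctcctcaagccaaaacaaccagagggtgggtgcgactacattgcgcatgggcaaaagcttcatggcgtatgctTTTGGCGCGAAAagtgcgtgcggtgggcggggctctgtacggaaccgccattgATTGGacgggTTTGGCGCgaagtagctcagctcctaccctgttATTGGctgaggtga
The first TTTGAA of Cdk1 begins 71 bases before the start and the other 15 bases before it, and that of Cdc20 begins 18 bases before the start. Mcm5 and Mcm6 hold no CHR, and their E2F words begin 153 and 149 bases before the start in Mcm5 and 110, 106 and 47 bases before it in Mcm6. Over the windows of 300 bases, 12 of the 16 mitosis members (75%) held a CHR, against 2 of the 14 S phase members (14.3%) and 17.9% of all 32851 windows. An E2F word stood in 6 of the 14 S phase members (42.9%), in 1 of the 16 mitosis members (6.25%), which was Cdk1, and in 2.26% of all windows. CCAAT was held by 14 of the 16 mitosis members (87.5%) and 9 of the 14 S phase members (64.3%), and by 37.4% of all windows. CHR and CCAAT stood together in 11 of the 16 mitosis members, in 2 of the 14 S phase members and in 6.95% of all windows. In the 250 bases before the start alone, the CHR stood in 7 of the 16 mitosis members, 2 of the 14 S phase members and 16% of all windows. An E2F word stood there in 4 of the 14 S phase members, 1 of the 16 mitosis members and 1.86% of all windows. The 2 S phase members with a CHR were Mcm2 and Cdc45, which held no E2F word. Matches are descriptions of letters and say nothing of whether a factor was bound in these slices, and a gene with more than 1 window was counted once if any of them held the motif.

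The libraries held 17830351 to 29941903 counts. Levels are in CPM, that is, counts scaled to a common library size with TMM factors. The markers of fibroblasts summed to 23520 to 33520 CPM per library and those of macrophages and monocytes to 7960 to 23020 CPM, whereas the 9 cardiomyocyte markers summed to 6.10 to 102 CPM. The defining cardiomyocyte genes were close to absent, with Tnnt2 at a mean of 7.61 CPM and Myh6 at 3.39 CPM, and Pln and Mb had 0 counts in at least 1 library. The label of heart tissue is thus not borne out by heart muscle transcripts. The values below are those of a culture in which, of the marker lists, those of fibroblasts and of macrophages and monocytes had the highest sums. Such sums do not give shares of RNA or of cells. Markers of endothelial cells summed to 1220 to 2103 CPM, those of smooth muscle cells and pericytes to 558 to 1057 CPM, and those of epicardial cells, Schwann cells and lymphocytes to at most 85.4, 25.8 and 1.28 CPM.

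All 40 genes were expressed in all 16 libraries. Their means over the 16 libraries ran from 5.10 CPM for Cdc6, which loads the helicase onto replication origins, to 401 CPM for Ccnd2, a D-type cyclin, with a median of 18.6 CPM. The lowest count of any member in any library was 64. Of the 40, 34 lay above 10 CPM, 17 above 20 CPM and 3 (Ccnd2, Pcna and Ccnd1) above 100 CPM. Together they made up 1318 to 1957 CPM of a library.

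Levels of different genes were compared per kb of annotated exon, where the order was led by genes of G1 and of replication. Pcna, the sliding clamp of DNA polymerase, stood first at 77.7 CPM per kb, ahead of Ccnd2 at 42.7, Ccnd1 at 22.7, Mcm6 at 15.1, E2f1 at 12.8 and Mcm3 at 10.3 CPM per kb. The highest mitosis genes were Ccnb2, a B-type cyclin, at 9.38 CPM per kb, Top2a, which untangles replicated chromosomes, at 7.92, and Mki67, which coats mitotic chromosomes and is the standard marker of proliferating cells, at 7.85. The median was 5.47 CPM per kb over the 16 S phase genes and 4.14 over the 20 mitosis genes. The classes overlapped, since Cdc6 at 0.975 CPM per kb lay next to the lowest mitosis gene, Cenpf, a kinetochore protein, at 0.930.

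The members varied more between libraries than most genes did, and the mitosis genes varied together. The biological coefficient of variation, the spread between libraries of a group beyond counting error, had a median of 19.2% over the 40 members, 20.1% over the mitosis genes and 15.2% over the S phase genes, against 11.9% over the 14229 genes tested above 1 CPM. From the lowest to the highest of the 16 libraries, the mitosis genes spanned 1.91-fold to 2.38-fold each. The S phase genes spanned 1.42-fold to 2.65-fold, with Rrm2, the regulated subunit of ribonucleotide reductase, at the top. Cdk2 spanned 1.21-fold, from 28.0 to 33.8 CPM, the least of the 40.

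**Figure D1:**
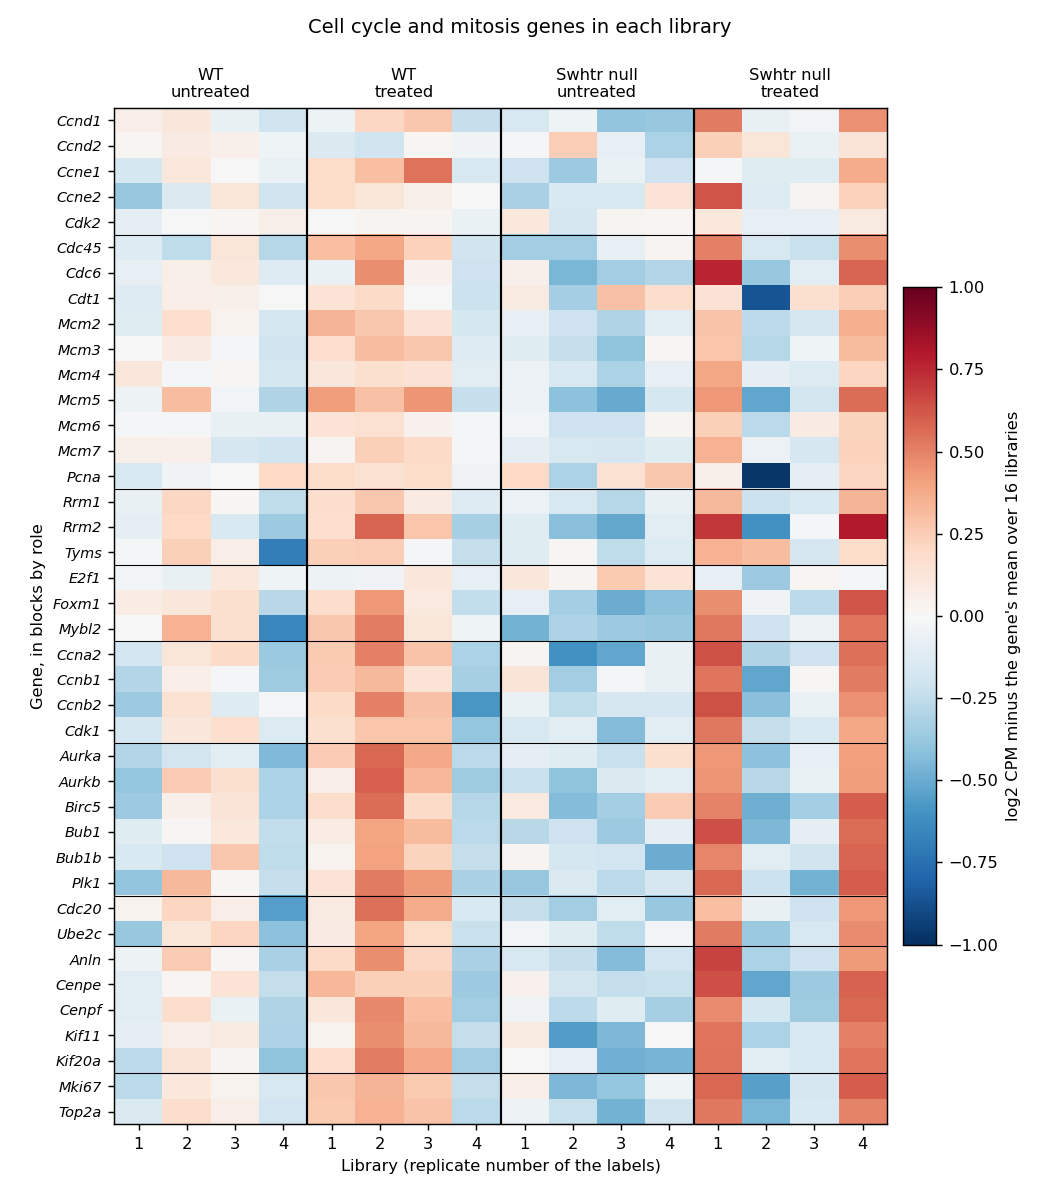
Colour gives log2 CPM minus the mean of the gene over the 16 libraries (scale at the right, -1 to 1), with 1 row for each of the 40 genes in blocks by role and 1 column for each library by group. Treated Swhtr null libraries 1 and 4 and treated WT libraries 2 and 3 are red in nearly every row, and treated WT library 1 in most rows. Treated WT library 4 and treated Swhtr null library 2 are blue in most rows.

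In treated Swhtr null slices the 4 libraries fell into a high and a low pair. Mki67 was at 115, 52.8, 68.5 and 117 CPM in treated Swhtr null libraries 1 to 4, and at 80.4, 56.3, 58.7 and 74.5 CPM in the untreated ones. In WT slices it was at 63.6, 82.8, 78.7 and 68.6 CPM untreated and 92.8, 97.3, 92 and 65 CPM treated. The low pair of treated Swhtr null libraries thus lay within the range of the untreated ones or below it, and treated WT library 4 lay apart from the other 3 of its group. Top2a showed the same high pair, at 101, 50.7, 62.6 and 98.1 CPM in treated and 67.4, 59.8, 50.2 and 60.7 CPM in untreated Swhtr null libraries. Over all members, treated Swhtr null libraries 1 and 4 were the upper 2 of their group for 38 and 39 of the 40 genes, and for all 20 mitosis genes. Treated Swhtr null library 2 was the lowest of its group for 29 of the 40. Treated WT library 4 was the lowest of its group for 39 of the 40, the exception being Ccnd2, and treated WT library 2 was the highest for 30. In untreated WT slices, library 4 was the lowest for 28 genes and library 2 the highest for 21, whereas no untreated Swhtr null library was lowest or highest for more than 19.

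The level of a class in a library was taken as the mean log2 CPM of its genes. For the 20 mitosis genes it was 3.95, 4.26, 4.23 and 3.86 in untreated WT libraries 1 to 4, and 4.32, 4.59, 4.43 and 3.85 in the treated ones. In Swhtr null slices it was 4.09, 3.87, 3.85 and 3.997 untreated and 4.68, 3.84, 3.96 and 4.67 treated. Treated and untreated libraries overlapped in both genotypes. The mean of the mitosis genes was 4.07 ± 0.20 (SD, n = 4) in untreated WT, 4.30 ± 0.32 in treated WT, 3.95 ± 0.11 in untreated Swhtr null and 4.29 ± 0.45 in treated Swhtr null slices. The 16 S phase genes showed the same order of groups within a smaller span, with means of 4.43 ± 0.11 in untreated WT, 4.59 ± 0.17 in treated WT, 4.35 ± 0.10 in untreated Swhtr null and 4.55 ± 0.32 in treated Swhtr null slices. The SD between libraries was largest in treated Swhtr null slices for both classes.

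**Figure D2:**
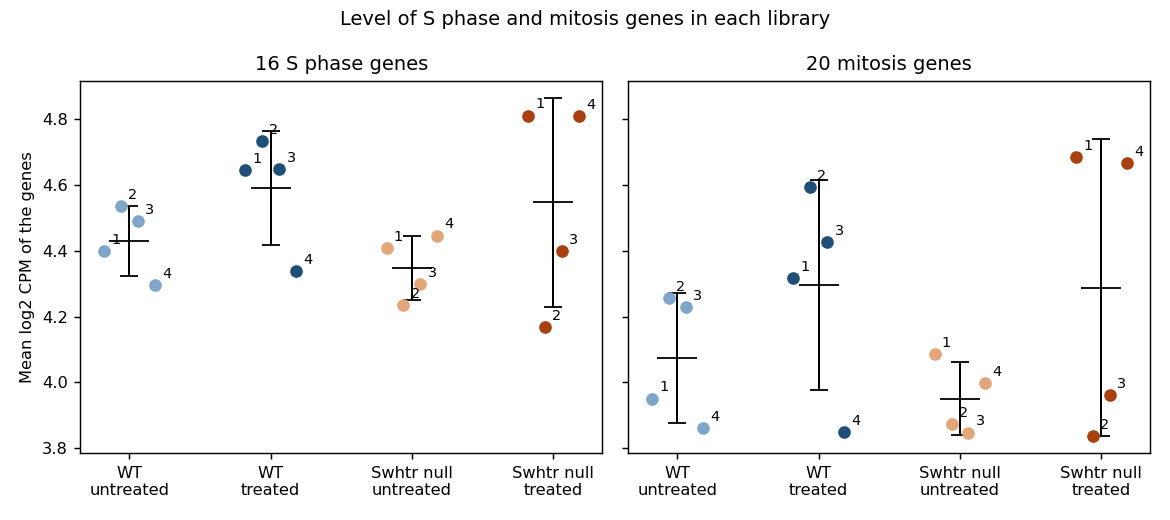
Mean log2 CPM of the 16 S phase genes (left) and the 20 mitosis genes (right) in each library, by group, with the replicate number beside each point and bars for the group mean and SD. Treated Swhtr null libraries 1 and 4 lie near 4.68 and 4.67 for mitosis genes, and libraries 2 and 3 at 3.84 and 3.96, within or below the untreated range.

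Cardiomyocyte markers were high in the treated libraries where these levels were lowest. The 9 cardiomyocyte markers, all of them tested and none at 0 throughout, summed to 13.2, 102, 74.5 and 9.87 CPM in treated Swhtr null libraries 1 to 4, so they were high in the 2 libraries of that group with low cell cycle genes, and to 16.3, 19.0, 8.56 and 54.0 CPM in treated WT libraries 1 to 4, with library 4 again the highest. In untreated slices they summed to 7.22 to 20.9 CPM in WT and 6.10 to 12.0 CPM in Swhtr null libraries, and untreated WT library 2 had both the highest sum (20.9 CPM) and the highest mitosis level (4.26) of its group. The Pearson correlation of this sum with the mitosis level was -0.74 after removal of the group means, but over the 16 libraries it was -0.22 (Spearman -0.06), and 0.06 without the 2 libraries farthest from the median sum. That of the endothelial marker sum was -0.39 over the 16 libraries and -0.68 after removal of the group means. For macrophages and monocytes it was 0.02 and 0.28, and for fibroblasts 0.08 and -0.11. Treated Swhtr null library 2 also held the lowest macrophage sum of its group (7960 CPM against 14910 to 19030 CPM). Library depth correlated with the mitosis level at 0.16, at 0.55 without the 2 libraries farthest in depth and at -0.39 with the group means removed. The part of these differences in cell type and depth in the results on cell cycle genes was not tested.

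Across the 16 libraries the S phase and mitosis levels rose and fell together, with a Pearson correlation of 0.97 and a Spearman correlation of 0.97, and of 0.97 (Pearson) with the group means removed. These values describe libraries that share depth and cell makeup between the 2 classes. The mitosis level lay 0.13 and 0.14 below the S phase level in treated Swhtr null libraries 1 and 4, the 2 highest in both classes, 0.49 below it in treated WT library 4 and 0.33 below it in treated Swhtr null library 2, the lowest in both classes. By group, the mitosis minus S phase difference was -0.36 ± 0.10 in untreated WT, -0.29 ± 0.15 in treated WT, -0.40 ± 0.07 in untreated Swhtr null and -0.26 ± 0.15 in treated Swhtr null slices (SD, n = 4 libraries each), and the groups overlapped.

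**Figure D3:**
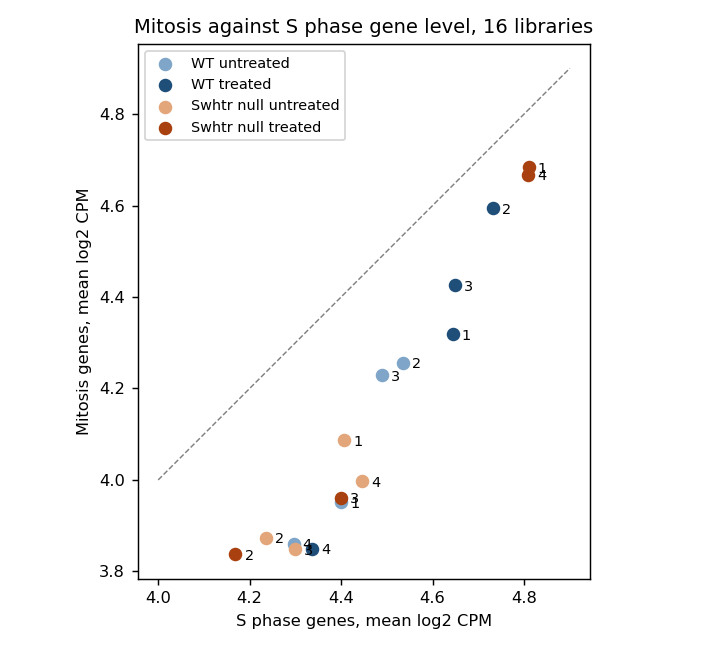
Mean log2 CPM of the 20 mitosis genes against that of the 16 S phase genes, 1 point for each of the 16 libraries, coloured by group and numbered by replicate, with a dashed line where both are equal. The points form 1 band (r = 0.97) that is steeper than the dashed line, with treated Swhtr null libraries 1 and 4 at its upper end and library 2 at its lower end.

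Single genes differed in how closely they followed this common level. Pairs of mitosis genes had a median correlation of 0.87 over the 16 libraries, positive in all 190 pairs, against 0.66 for the 120 pairs of S phase genes and 0.78 for the 320 mixed pairs. Top2a, Anln, a scaffold of the cleavage furrow, and Ccna2, the A-type cyclin, followed the mean of the mitosis genes most closely, at 0.97, 0.96 and 0.96. For each of these, the gene itself was left out of the mean. Of the S phase genes, Rrm1, the large subunit of ribonucleotide reductase, and Rrm2 followed it at 0.96 and 0.96, and Mcm2 of the helicase at 0.94. E2f1, the transcription factor of the G1/S transition, correlated with it at -0.01 over the 16 libraries and at 0.40 with the group means removed, and Ccnd2 at 0.15 and 0.14. Pcna (0.41, and 0.61 with the group means removed), Cdt1, a licensing factor (0.47 and 0.62), Cdk2 (0.59 and 0.66) and Tyms, which makes thymidylate (0.62 and 0.53), followed it loosely.

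Treated WT slices were compared with untreated ones to see whether oxygen deprivation and recovery moved these genes in normal tissue. The log2 fold change was above 0 for 37 of the 40 genes, for all 20 mitosis genes and for 15 of 16 S phase genes, and no change passed the test. Since most members rose and fell together across libraries, such counts, here and below, do not stand for as many separate observations. The median log2 fold change was 0.20 over the 40 members, 0.23 over the mitosis genes and 0.15 over the S phase genes, against 0.01 over all genes tested, of which 51.9% were above 0. Calls required an adjusted p under 0.05 in edgeR's quasi-likelihood test and an absolute log2 fold change over 0.58. No member was called, and 0% of all genes tested were. DESeq2 and limma called 0 members at these thresholds, against 0.036% and 0.02% of all genes tested. At an unadjusted p under 0.05, 1 of the 40 genes was higher, against 2.62% of the genes tested.

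That gene was Aurka, a kinase of the spindle poles (chromosome 2, 172356190 to 172370535, GRCm38). It was at 7.5, 8.09, 8.55 and 6.74 CPM in the 4 untreated WT libraries and 10.9, 13.7, 11.9 and 7.62 CPM in the 4 treated ones, and treated library 4 lay within the untreated range (log2 fold change 0.52 with a standard error of 0.18, adjusted p = 0.999, edgeR). In Swhtr null slices it was at 8.62, 8.44, 7.88 and 10.3 CPM untreated and 12.4, 6.89, 8.65 and 12.2 CPM treated, with a log2 fold change of 0.19. The difference between the genotypes was -0.33 (standard error 0.26, adjusted p = 0.778, edgeR). The Ccnd2 level was 407 ± 15.3 CPM in untreated and 376 ± 25.9 CPM in treated WT slices (log2 fold change -0.11), and with E2f1 (-0.002) and Cdk2 (-0.001) it made up the 3 genes not above 0. Without treated WT library 4, the library low in nearly all members, 7 members were higher at an unadjusted p under 0.05, against 2.77% of the genes tested in that fit, and the median change was 0.31.

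In Swhtr null slices, the same comparison gave larger fold changes for most of the 40 genes, and again none was called. The log2 fold change was above 0 for 37 of the 40, for all 20 mitosis genes and for 13 of 16 S phase genes, with 51.6% of all genes tested above 0. The median was 0.36 over the members, 0.39 over the mitosis genes and 0.26 over the S phase genes, against 0.01 over all genes tested. Of all genes tested 0.621% were called, 0.316% as higher. At an unadjusted p under 0.05, 12 members were higher and 1 was lower, against 8.69% and 7.84% of the genes tested, and the smallest adjusted p of a member was 0.114. The 12 were the factors Mybl2 and Foxm1, the G1 cyclins Ccnd1 and Ccne2, Cdc6, Mcm4, Mcm7 and Rrm2 of S phase, and Bub1, Bub1b, Cdc20 and Kif20a of mitosis. In a fit of the 14065 genes with at least 10 counts in every library, these shares were 12.6% and 12.4%. There too, 12 members were higher and 1 was lower. Other shares at this p are over all genes tested in a fit. Of the 24971 tested here, 14229 lay above 1 CPM, as did all 40 members. With DESeq2, 1 member, Mybl2, passed both thresholds, and 1.86% of all genes tested did. With limma, 0 members passed both, and 0.897% of all genes tested did. Deviations of same-numbered treated and untreated Swhtr null libraries correlated at 0.15 to 0.59, and those of same-numbered libraries of different genotypes at up to 0.38. A fit with the replicate number as a block in the 8 Swhtr null libraries was added after the data were seen. In it, 2.13% of all genes tested were called, and again no member. These were 531 genes, against 155 without the block. In that fit 16 members were higher at an unadjusted p under 0.05, against 10.1% of the genes tested, and E2f1 (-0.25, adjusted p = 0.0183, edgeR) and Foxm1 (0.53, adjusted p = 0.0333, edgeR) had an adjusted p under 0.05 at fold changes under the threshold.

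**Figure D4:**
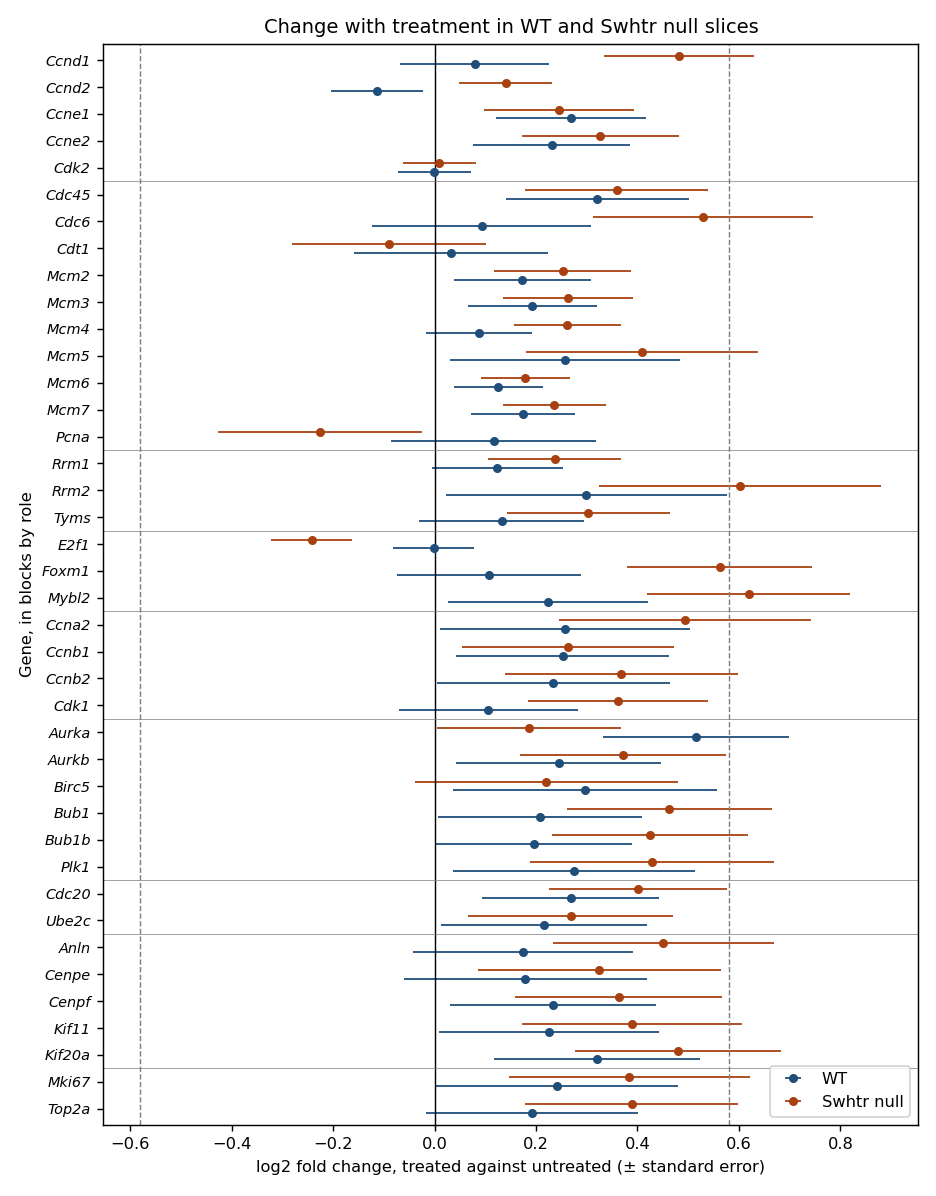
Log2 fold change of each of the 40 genes between treated and untreated slices in WT (blue) and Swhtr null (red) slices, with the standard error as a bar, in blocks by role. Dashed lines mark the threshold of 0.58 in either direction. All 20 mitosis genes lie to the right of 0 in both genotypes, and the red points of E2f1, Pcna and Cdt1 lie to its left.

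The G1 cyclins differed among themselves. Ccnd1, the D-type cyclin that mitogens induce (chromosome 7, 144929931 to 144939925, GRCm38), was at 94, 102, 80.4 and 81.1 CPM in the 4 untreated Swhtr null libraries and 151, 100.1, 104 and 145 CPM in the 4 treated ones. Treated libraries 1 and 4 were above all other libraries of the series, whereas library 2 lay inside the untreated range and library 3 just above it. Its change of 0.48 had a standard error of 0.15 and an adjusted p of 0.114 from edgeR, of 0.0223 from DESeq2 and of 0.0327 from limma, each under the fold threshold. In WT slices Ccnd1 was at 110.5, 114, 100.2 and 91.9 CPM untreated and 102, 121, 127 and 89.7 CPM treated (0.08). The gene overlaps LTO1 on the opposite strand, and whether reads were counted by strand is not stated. Ccne1 and Ccne2, the E-type cyclins that start S phase, changed by 0.25 and 0.33 in Swhtr null and by 0.27 and 0.23 in WT slices. Cdk2 stayed between 28.0 and 33.8 CPM in all 16 libraries (log2 fold change 0.009 in Swhtr null and -0.001 in WT slices).

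The 3 transcription factors on the list did not move alike. Mybl2, a subunit of the complex that switches on mitosis genes (chromosome 2, 163054687 to 163084688, GRCm38), was at 4.52, 5.06, 4.89 and 4.82 CPM in the 4 untreated Swhtr null libraries and 9.07, 5.44, 6.07 and 9.11 CPM in the 4 treated ones. All 4 treated libraries were above all 4 untreated ones, as for 5.19% of the genes tested above 1 CPM (log2 fold change 0.62 with a standard error of 0.20, adjusted p = 0.116, edgeR). Its adjusted p was 0.0487 from DESeq2. In WT slices Mybl2 ran from 4.0 to 7.98 CPM untreated and from 6.11 to 8.96 CPM treated, which overlap.

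Foxm1, the forkhead factor of G2 and mitosis (chromosome 6, 128362967 to 128376146, GRCm38), was at 14.4, 12, 10.8 and 11.4 CPM in the 4 untreated Swhtr null libraries and 20.9, 14.8, 12.7 and 23.5 CPM in the 4 treated ones. Treated library 3 lay inside the untreated range, and libraries 1 and 4 were the 2 highest of the series (log2 fold change 0.56 with a standard error of 0.18, adjusted p = 0.128, edgeR; adjusted p = 0.0416, DESeq2). Foxm1 overlaps the annotated spans of Tex52 and Gm44596, protein-coding genes on the same strand. In WT slices it was at 16.1, 16.4, 17 and 12.5 CPM untreated and 17.2, 20.5, 16.3 and 12.8 CPM treated. E2f1 (chromosome 2, 154559407 to 154569892, GRCm38) went the other way. It was at 43.5, 41.1, 48.1 and 44.3 CPM in the 4 untreated Swhtr null libraries and 38, 31.2, 40.8 and 39.6 CPM in the 4 treated ones, all 4 treated libraries below all 4 untreated ones, as for 5.13% of the genes tested above 1 CPM. The log2 fold change was -0.24 (standard error 0.08, adjusted p = 0.125, edgeR; adjusted p = 0.0516, DESeq2). In WT slices E2f1 was at 39.4, 38.08, 43.1 and 39 CPM untreated and 38.9, 39.2, 43.4 and 37.9 CPM treated, with no visible shift.

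**Figure D5:**
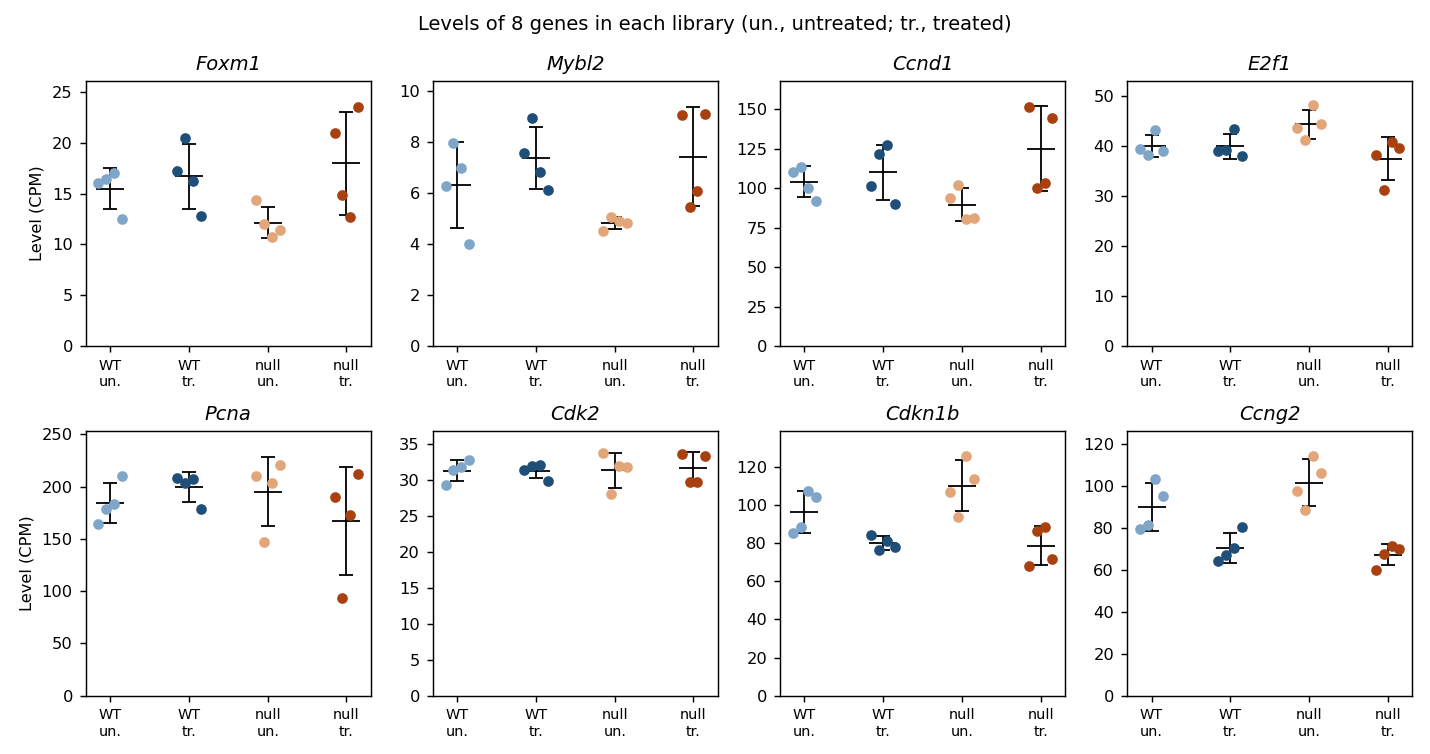
Levels in CPM of 6 members (Foxm1, Mybl2, Ccnd1, E2f1, Pcna, Cdk2), the CDK inhibitor Cdkn1b and the cyclin Ccng2 in each library, with bars for the group mean and SD. Treated and untreated Swhtr null libraries do not overlap for Mybl2, E2f1, Cdkn1b and Ccng2, and overlap for the other 4 genes.

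Of the 10 genes of origin licensing and the replication fork, 8 were above 0 in Swhtr null slices, with a median of 0.26. Cdc6 had the largest change (0.53, standard error 0.22), at 5.13, 3.6, 3.89 and 4.05 CPM in the 4 untreated Swhtr null libraries and 8.38, 3.81, 4.62 and 7.4 CPM in the 4 treated ones. The 2 high values were those of treated libraries 1 and 4. The helicase genes Mcm2 to Mcm7 lay between 0.18 (Mcm6) and 0.41 (Mcm5), and between 0.09 (Mcm4) and 0.26 (Mcm5) in WT slices. Pcna and Cdt1 were the 2 below 0. Pcna was at 209.9, 147, 203 and 221 CPM in the 4 untreated Swhtr null libraries and 189.8, 93.6, 173 and 212 CPM in the 4 treated ones, and treated library 2 was less than any other library of the series (log2 fold change -0.23 with a standard error of 0.20, adjusted p = 0.632, edgeR). Cdt1 was low in the same library, at 17.8, 8.89, 18.1 and 19.1 CPM in treated Swhtr null libraries 1 to 4. Among the enzymes of DNA precursors, Rrm2 was at 17.6, 14.3, 13.5 and 17.7 CPM in the 4 untreated Swhtr null libraries and 31.3, 12.6, 19 and 33.3 CPM in the 4 treated ones and changed by 0.60 (standard error 0.28, adjusted p = 0.300, edgeR). Rrm1 and Tyms changed by 0.24 and 0.30.

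The mitosis genes were alike in direction but not in size. Their log2 fold changes ran from 0.19 (Aurka) to 0.56 (Foxm1) in Swhtr null slices and from 0.11 (Cdk1 and Foxm1) to 0.52 (Aurka) in WT slices. The cyclins Ccna2, Ccnb1 and Ccnb2 and their kinase Cdk1 had a median of 0.37 in Swhtr null and 0.24 in WT slices. Cdk1 was at 23, 23.7, 19 and 23.8 CPM in the 4 untreated Swhtr null libraries and 36.9, 21.7, 23 and 33.4 CPM in the 4 treated ones, so that treated libraries 2 and 3 lay inside the untreated range. The 6 kinases, chromosome passengers and checkpoint genes (Aurka, Aurkb, Plk1, Birc5, Bub1 and Bub1b) had a median of 0.40 in Swhtr null and 0.26 in WT slices. Bub1, a kinase of the spindle checkpoint, was at 10.4, 11, 9.83 and 11.9 CPM in the 4 untreated Swhtr null libraries and 19.8, 9.29, 11.8 and 18.7 CPM in the 4 treated ones and changed by 0.46 (standard error 0.20, adjusted p = 0.261, edgeR). Cdc20 and Ube2c, which work with the anaphase-promoting complex to break down cyclin B and securin, changed by 0.40 and 0.27. The motor genes Kif11, Kif20a and Cenpe, the kinetochore gene Cenpf and Anln had a median of 0.39 in Swhtr null and 0.23 in WT slices.

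The result in Swhtr null slices depended on which libraries entered. Without treated Swhtr null library 2, 31 members were higher at an unadjusted p under 0.05, against 7.36% of the genes tested in that fit, and without library 3, 24 were, against 9.2%. Without treated library 1 or without library 4, 3 were, against 7.77% and 8.76%. Without untreated Swhtr null library 3 the number was 4, against 6.89%, and without untreated library 2 it was 6, against 11.1%. The median change of the 40 genes ran from 0.24 to 0.46 over the 16 fits with a library left out. Without treated library 3, Foxm1 was called (0.70, adjusted p = 0.0299, edgeR), with 1.22% of the genes tested, and in the other 15 fits no member was. In the same comparison, all 9 cardiomyocyte markers were above 0, with a median of 2.77 and 7 higher at an unadjusted p under 0.05. All 12 macrophage and monocyte markers were below 0 (median -0.55, 6 lower at that p), and all 7 markers of smooth muscle cells and pericytes were above 0 (median 0.70, 3 higher at that p). Of the fibroblast markers, 8 of 9 were above 0 (median 0.21, 3 higher), and of the endothelial ones 7 of 8 (median 0.26, 3 higher). Of all genes tested, 8.69% were higher and 7.84% lower at that p. Called were 1 fibroblast and 1 Schwann cell marker as higher and 1 epicardial marker as lower, against 0.316% and 0.304% of all genes tested. The part of these shifts in the results on cell cycle genes was not tested.

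Between the genotypes, untreated Swhtr null slices had somewhat lower values than untreated WT slices for most members, and no difference passed the test. The log2 fold change was below 0 for 32 of the 40, with a median of -0.13 over the members, -0.14 over the mitosis genes and -0.10 over the S phase genes, against 0.00 over all genes tested, of which 49.8% were above 0. No member was called, against 0.1% of all genes tested, and 0 of the 40 had an unadjusted p under 0.05, against 5.36%. DESeq2 and limma called 0 members as well, against 0.132% and 0.1% of all genes tested. The furthest below 0 were Mybl2 (log2 fold change -0.39 with a standard error of 0.20, adjusted p = 0.903, edgeR) and Foxm1 (log2 fold change -0.35 with a standard error of 0.18, adjusted p = 0.903, edgeR). Among treated slices the median was 0.02, with 23 genes above 0 and 17 below it, and 49.7% of all genes tested above 0. No member was called, against 0.0921% of all genes tested. Only Ccnd2 had an unadjusted p under 0.05, with 376 ± 25.9 CPM in WT and 431 ± 37.0 CPM in Swhtr null slices (log2 fold change 0.20, adjusted p = 0.767, edgeR), against 2.88% of genes higher at that p. These 2 comparisons use the same libraries as the comparisons of treated with untreated slices, and in both, genotype goes with line and litter.

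Whether the response itself differed by genotype was tested as an interaction. The change was larger in Swhtr null than in WT slices for 34 of the 40 genes, against 50.2% of all genes tested, with a median difference of 0.14 over the members, 0.15 over the mitosis genes and 0.08 over the S phase genes. No member passed, with 0% of all genes called, and the smallest adjusted p of a member was 0.715 (edgeR). DESeq2 and limma called 0 members and 0% of all genes too. With the replicate block in the Swhtr null libraries, 0 members and 0.04% of all genes were called, and the smallest adjusted p of a member was 0.223. At an unadjusted p under 0.05 there was 1 member, E2f1, with a difference of -0.24 (standard error 0.11), against 3.63% of genes tested lower at that p. Ccnd1 (0.40, standard error 0.21), Foxm1 (0.46, standard error 0.26), Cdc6 (0.44, standard error 0.31) and Mybl2 (0.40, standard error 0.28) had the largest positive differences, and Pcna (-0.34) and Aurka (-0.33) the largest negative ones. The larger fold changes in Swhtr null slices were therefore not shown to differ from those in WT slices at this spread. Without treated WT library 4, the median difference was 0.02 with 25 genes above 0, and without treated Swhtr null library 1 or 4 there were 24 and 23 above 0.

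Other genes of the cycle, from lists written by hand, gave the wider setting. Of 45 further mitosis genes, 43 were above 0 in each genotype, with medians of 0.33 in Swhtr null and 0.20 in WT slices, and none was called. Ckap2, a spindle protein, had the smallest p of them (log2 fold change 0.57 with a standard error of 0.17, adjusted p = 0.0846, edgeR). Of 26 further S phase genes, 22 were above 0 in Swhtr null and 25 in WT slices, with medians of 0.17 and 0.15, and none was called. Pole, the leading strand polymerase, changed by 0.56 and Mcm10, a fork factor, by 0.53 in Swhtr null slices. Of 17 E2F, DREAM and MYC factors, edgeR called 0 and DESeq2 called 1 in Swhtr null slices, and 4 were higher at an unadjusted p under 0.05, against 8.69% of the genes tested. The gene that DESeq2 called was E2f8, an E2F repressor (log2 fold change 0.68 with a standard error of 0.21, adjusted p = 0.107, edgeR; adjusted p = 0.0441, DESeq2). Another of the 4 was Myc (0.23 in Swhtr null and 0.24 in WT slices). For this list the medians were 0.04 in Swhtr null and 0.08 in WT slices.

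Among 15 other cyclins and kinases of the cycle, 12 were above 0 and 3 below 0 in Swhtr null slices. The medians were 0.04 in Swhtr null and 0.05 in WT slices. At an unadjusted p under 0.05, 5 were higher and 1 was lower in Swhtr null slices, against 8.69% and 7.84% of the genes tested. Of the 15, edgeR called 1 as lower, Ccng2, against 0.304% of all genes tested. Ccng2, an unconventional cyclin known as a FOXO target that is high in cells that have stopped dividing, was at 97.3, 88.4, 114 and 106 CPM in the 4 untreated Swhtr null libraries and 60.0, 67.6, 71.4 and 69.8 CPM in the 4 treated ones, without overlap (log2 fold change -0.59 with a standard error of 0.10, adjusted p = 0.00382, edgeR). In WT slices it was at 79.3, 81.1, 103 and 95 CPM untreated and 64.2, 67, 70.4 and 80.3 CPM treated (log2 fold change -0.35 with a standard error of 0.10, adjusted p = 0.999, edgeR). The interaction was -0.25, with an unadjusted p of 0.0804. The call was lost by a small margin in edgeR on the 8 Swhtr null libraries alone (-0.60, adjusted p = 0.0509) and by the fold threshold when treated library 1 or untreated library 3 or 4 of the Swhtr null slices was left out (-0.53 to -0.57, adjusted p from 0.0203 to 0.026). Of 10 CDK inhibitors and RB family genes, 0 were called by edgeR or DESeq2, with a median of -0.08, and 4 were lower at an unadjusted p under 0.05, against 7.84% of the genes tested. Cdkn1b, the inhibitor p27 of CDK2, was at 107, 93.6, 126 and 114 CPM in the 4 untreated Swhtr null libraries and 68, 86.3, 88.4 and 71.4 CPM in the 4 treated ones (log2 fold change -0.48 with a standard error of 0.10, adjusted p = 0.0125, edgeR), without overlap and under the fold threshold, and changed by -0.27 in WT slices. Rb1, which holds E2F in check, changed by -0.28 in Swhtr null and -0.06 in WT slices. Of 17 p53 target genes, 0 were called by edgeR or DESeq2, and at an unadjusted p under 0.05 there were 8 above and 3 below 0, against 8.69% and 7.84% of the genes tested. The median was 0.22 in Swhtr null and 0.01 in WT slices. Aen, a nuclease (log2 fold change 0.45 with a standard error of 0.10, adjusted p = 0.0165, edgeR), and Zmat3, an RNA-binding protein (log2 fold change 0.33 with a standard error of 0.08, adjusted p = 0.0381, edgeR), had the smallest p of these and lay under the fold threshold.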

How the data were processed

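RNA was measured in 16 libraries of cultured heart slices, 4 per group of genotype and treatment, with groups taken from the sample labels. Alignment by the authors used STAR on mm10 (GRCm38), followed by counting per Ensembl gene, and the deposited values are raw counts of 55487 genes with no filter applied. Library kits are named differently in the methods and in the labels, and whether counting took strand into account is not given in the sources used here. In all, 20 of the 40 members overlap the span of another annotated gene, 9 of them a protein-coding gene on the opposite strand, so that their reads could be split or shared.

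Symbols, positions and exon lengths were those of GENCODE M21 (GRCm38), which holds 55227 of the 55487 identifiers, and promoter sequences from RefSeq (GRCm38.p6). The fit was made with edgeR 4.0.16 (R 4.3.3). Genes summing to 10 counts or more entered it with TMM normalization, 1 mean for each of the 4 groups and 12 residual degrees of freedom. They were compared by the robust quasi-likelihood test with Benjamini-Hochberg adjustment over all genes tested. CPM levels are these counts scaled by the TMM-corrected library size, and log2 CPM used a prior count of 2. Alternatives were limma 3.58.1 with voom and quality weights, DESeq2 1.42.0 fitted to the libraries compared or to all 16, DESeq2's size factors, 2 stricter filters on low counts and no filter, edgeR on the libraries compared, no fold threshold, a block for the replicate number, and each library left out in turn. The fitting procedure was tested on simulated data, and counts of every pair of libraries within a group differed by more than sampling noise. The members, the lists of other cell cycle genes and the marker lists were chosen with earlier results of these data known, so no p-value was adjusted over a list alone and no test was made on a list. Any of the 40 members may be named. Of each other list, the genes named are among the 4 with the smallest p in any comparison, of each marker list the highest and the defining markers at 0, and as patterns most like the members those with the highest correlation. Counting error, as a coefficient of variation of 100 divided by the square root of the mean count, had a median of 4.91% over the members and reached 9.38%. Deviations from the group means of same-numbered treated and untreated libraries correlated at 0.15, 0.59, 0.26 and 0.40 in Swhtr null and at -0.11, -0.08, 0.17 and 0.32 in WT slices. Same-numbered libraries of different genotypes, which cannot share a mouse, correlated at -0.03 to 0.38. The numbers were taken to pair the Swhtr null libraries alone, although these ranges overlap, and a block within these was added after the data were seen.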

Additional observations from a re-analysis of the deposited data

Results flagged for a closer look

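A sample was examined further where its gap to the nearest of the other 3 libraries of its group as a share of the range of the group passed Dixon's 95% critical value for 4 values. Over the 40 members and the class levels, 172 groups of 4 were examined, and 6 met this rule where chance alone gives 8.6 (about 1 in 20). In treated WT library 4, Mki67 was at 65.0 CPM (others 92.0 to 97.3 CPM), Cenpe, a kinetochore motor, at 12.0 CPM (others 18.1 to 19.3 CPM) and Pcna at 179 CPM (others 204 to 208 CPM). This is the library that was the lowest of its group for 39 of the 40 members, and its cardiomyocyte marker sum of 54.0 CPM was the highest of its group. Cdt1 was at 8.89 CPM in treated Swhtr null library 2, where the others were at 17.8 to 19.1 CPM, and the cardiomyocyte marker sum of that library was 102 CPM. Cdk1 was at 19.0 CPM in untreated Swhtr null library 3 (others 23.0 to 23.8 CPM). Bub1b, a checkpoint kinase, was at 23.4 CPM in untreated WT library 3 (others 16.2 to 17.4 CPM), the only one of the 6 that was high. The part of cell makeup in these values was not tested.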

How the results depend on the processing

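With 11 alternatives besides left-out libraries, 134 of 135 medians (of the members, the S phase and the mitosis genes in 5 comparisons) kept their sign, and 7 of these moved by over 1.5 times. The sign that turned was that of the S phase genes between treated genotypes (-0.013, and -0.021 to 0.024 over the alternatives), where the median of the members (0.016) ran from 0.004 to 0.06 and that of the mitosis genes (0.026) reached 0.071, all within the spread between libraries. The S phase median of the interaction (0.075) reached 0.123. Of the counts of members called, the exception was the number of members called in treated against untreated Swhtr null slices, which was 0 in edgeR and 1 in DESeq2 on all 16 libraries (Mybl2, log2 fold change 0.61, adjusted p = 0.0487). It was also 1 without treated Swhtr null replicate 3 (Foxm1), so that it ran from 0 to 1 over the left-out libraries, and the cause was not tested. Medians over the members with 1 library left out ran from 0.24 to 0.46 in Swhtr null slices, from 0.11 to 0.31 in WT slices, from -0.10 to 0.13 between treated genotypes, where the sign is therefore open to 1 library, and down to 0.02 for the interaction. In WT slices, E2f1 changed sign without untreated replicate 3 and without treated replicates 1, 2 and 4 (range over left-out libraries -0.046 to 0.037), and Foxm1 without treated replicate 2 (range -0.007 to 0.215). The count of all genes called in Swhtr null slices ran from 22 to 575 over left-out libraries and was 6 in edgeR on the libraries compared.

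Same-numbered libraries of all 4 groups were not treated as sets, since the correlations of their deviations ran from -0.11 to 0.59. With the replicate number as a block over all groups, 0 members were called in each of the 5 comparisons, the median change of the members was 0.36 in Swhtr null and 0.20 in WT slices, and 450 genes in all were called in Swhtr null slices against 155 without the block. E2f1 then had an adjusted p of 0.0267 in Swhtr null slices (log2 fold change -0.24), under the fold threshold.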

Other observations

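Among 14189 genes above 1 CPM outside the 40, Pclaf, a partner of the clamp PCNA, had the highest Pearson correlation over the 16 libraries with both the S phase level (0.98) and the mitosis level (0.97). Pcna itself stood at 0.41 with the mitosis level. After Pclaf, the mitosis level was followed most closely by Tacc3, a spindle protein (0.96), Ect2 and Racgap1, which position the cleavage furrow (0.95 and 0.95), and Spag5, a spindle protein (0.95). Genes outside every list that followed it closely included Pbk, a mitotic kinase (0.94), and Kifc1, a spindle motor (0.93). The S phase level was followed by Kif15, a spindle motor (0.96), Mad2l1, a checkpoint protein (0.94), Racgap1 (0.94), Stmn1, a microtubule regulator (0.94), and Spag5 (0.94), which act in mitosis rather than in S phase. Smdt1, a subunit of the mitochondrial calcium uniporter that has no known place in the cycle, correlated with the S phase level at 0.93 and at 0.94 with the group means removed. The libraries share depth and cell makeup, the genes were picked as the highest of 14189, and no test was made.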
